A study of Mus musculus with 12 samples.

Results

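The regions described here are stretches of the mouse genome away from gene ends that carried acetylation of histone H3 at lysine 27 (H3K27ac) late in gastrulation but not early, and that already carried monomethylation of H3 at lysine 4 (H3K4me1) early. H3K27ac peaks of 5 stages were merged wherever they touched or overlapped. A region was kept where it lay over 1 kb from both outer ends of every protein-coding gene, had an H3K27ac peak at both OB and EHF and none at ES or MS, and overlapped an H3K4me1 peak by at least 1 bp at ES or MS. This gave 955 regions of the 50341 merged ones. The number rests on the choice of stages and peaks: it was 2306 with MS alone as the early stage, 2620 with OB alone and 2321 with EHF alone as the late stage, 551 with H3K4me1 needed at both ES and MS, and 240 in the upper 50% of each list, which kept 2 of the 955. Of the merged regions, 35213 lay that far from gene ends and are called far regions; 1104 of these gained H3K27ac between the early and the late pair of stages (3.14%). The 955 with earlier H3K4me1 made up 2.71% of far regions and the other 149 gained regions had no early H3K4me1 peak. The regions were chosen by the presence and absence of H3K27ac and H3K4me1 peaks at ES, MS, OB and EHF, so these numbers carry no test.

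The study profiled both marks in single cells of C57BL/6 mouse embryos with CoBATCH, where Tn5 transposase is tethered to an antibody against the mark and cuts the DNA nearby. Embryos were staged by shape as pre-streak (Pre_PS, E6.0), early streak (ES, labelled E6.0 and E6.5), mid streak (MS, labelled E6.0 and E7.0), late streak (LS, E7.0 and E7.25), no allantoic bud (OB, E7.25 and E7.5) and early headfold (EHF, E7.5). Each stage and mark had 1 library, given as 1 list of peaks, so no difference between stages could be set against a spread between embryos. The labels state that extraembryonic tissue was dissected away at Pre_PS, ES, MS and LS, and do not state it for OB and EHF, so a gain at OB and EHF and a change in the tissue collected cannot be told apart.

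H3K4me1 is laid down by MLL3 and MLL4 and marks enhancers, whether active or not. H3K27ac is laid down by the acetyltransferases CBP and p300 and marks active enhancers and promoters. An enhancer that carries H3K4me1 without H3K27ac is often called primed, and in differentiating embryonic stem cells many enhancers are known to carry H3K4me1 before they acquire H3K27ac.

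Most of the regions hold no annotated start of transcription. RefSeq start windows (GRCm38.p6, 250 bases before to 50 after a start) were at hand for 19 of the 20 chromosomes, and 29 of the 930 regions there overlapped one (3.12%), against 5.77% of all far regions and 16.3% of the far regions with H3K27ac at each stage from ES to EHF. In 8 of the 29 the start was that of a protein-coding gene, inside the gene and away from its outer ends, and in 22 it was that of a long noncoding RNA, with a region in Akap1 counted in both. For 11 regions a whole start window lay inside the region, and 4 of these windows are shown since they are the DNA of the regions themselves; that of Vegfa, which lies in none of the regions, is shown since Vegfa had the most regions around it. Capitals mark letters that match a searched motif. Tnni1 (troponin I of slow muscle, also made in the embryonic heart) is at chr1:135799171-135799470 on the plus strand. Dnaic2 (a dynein chain of motile cilia) is at chr11:114727169-114727468 on the plus strand. The noncoding 4930556N13Rik, inside Akap1, is at chr11:88851354-88851653 on the plus strand, with an AP-1 match in capitals. The noncoding Gm39325, inside Usp2, is at chr9:44072119-44072418 on the minus strand, with a ZIC match in capitals. Vegfa is at chr17:46032328-46032627 on the minus strand.
Tnni1: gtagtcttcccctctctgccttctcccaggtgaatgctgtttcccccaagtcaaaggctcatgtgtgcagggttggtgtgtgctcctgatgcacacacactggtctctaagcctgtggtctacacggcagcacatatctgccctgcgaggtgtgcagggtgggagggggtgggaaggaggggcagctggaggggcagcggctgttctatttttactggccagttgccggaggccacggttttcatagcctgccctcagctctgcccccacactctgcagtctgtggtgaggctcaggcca
Dnaic2: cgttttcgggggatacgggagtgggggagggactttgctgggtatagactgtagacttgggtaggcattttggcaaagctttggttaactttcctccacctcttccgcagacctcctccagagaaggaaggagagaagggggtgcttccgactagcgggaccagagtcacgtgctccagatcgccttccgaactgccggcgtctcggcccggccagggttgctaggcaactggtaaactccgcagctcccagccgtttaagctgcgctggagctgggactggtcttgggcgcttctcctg
4930556N13Rik: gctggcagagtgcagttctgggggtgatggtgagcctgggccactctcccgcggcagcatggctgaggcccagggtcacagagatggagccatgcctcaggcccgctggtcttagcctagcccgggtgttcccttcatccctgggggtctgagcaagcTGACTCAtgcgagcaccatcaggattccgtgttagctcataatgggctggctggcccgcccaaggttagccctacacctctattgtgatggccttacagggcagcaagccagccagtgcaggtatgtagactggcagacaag
Gm39325: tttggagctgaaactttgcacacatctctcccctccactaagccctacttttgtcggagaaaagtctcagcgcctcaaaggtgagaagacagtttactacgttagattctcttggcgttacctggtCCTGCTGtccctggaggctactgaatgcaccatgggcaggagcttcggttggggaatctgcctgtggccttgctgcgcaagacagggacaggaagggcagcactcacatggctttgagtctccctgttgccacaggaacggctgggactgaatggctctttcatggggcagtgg
Vegfa: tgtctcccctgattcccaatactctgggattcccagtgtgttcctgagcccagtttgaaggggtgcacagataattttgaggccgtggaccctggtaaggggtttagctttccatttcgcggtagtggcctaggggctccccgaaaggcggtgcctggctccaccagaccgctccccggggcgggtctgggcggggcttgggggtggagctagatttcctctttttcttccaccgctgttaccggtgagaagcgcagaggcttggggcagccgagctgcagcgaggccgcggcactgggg

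Folds are those of the highest peak anywhere in the merged region over a start, and the peaks of single stages were not placed on the start window. In the region over the Tnni1 start the authors' fold over local background of H3K27ac was 6.65 at LS, 5.19 at OB and 5.56 at EHF, and that of H3K4me1 was 4.46 at ES, 5.36 at MS, 6.33 at LS, 6.51 at OB and 5.86 at EHF. In the region over the Dnaic2 start H3K27ac had a fold of 5.98 at LS, 4.48 at OB and 5.54 at EHF, and H3K4me1 a fold of 8.18 at ES, 4.41 at MS, 10.4 at LS, 10.6 at OB and 5.19 at EHF. Both regions thus carried H3K4me1 at all 5 stages from ES on and H3K27ac from LS on. In the region over the 4930556N13Rik start in Akap1 H3K27ac had a fold of 5.58 at LS, 5.04 at OB and 6.01 at EHF. In the region over the Gm39325 start H3K27ac was at the lowest fold of its list at OB (3.25), had a fold of 3.78 at EHF and no peak at LS, while H3K4me1 was present at all 5 stages (3.10 to 4.91).

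Motif letters were counted on both strands in the 34 start windows that overlap the regions and in all 32619 windows; none of the strings contains another. AP-1 (TGACTCA or TGAGTCA) was in 6 of the 34 (17.6%), against 5.22% of all windows, and ZIC (CAGCAGG) in 9 (26.5%), against 10.6%. The letters of GATA factors, GATAAG, were in 4 (11.8%, against 7.47%), the E-box CATCTG in 7 (20.6%, against 17.1%), SOX (ACAATG) in 4 (11.8%, against 12.2%), TEAD (GGAATG) in 3 (8.82%, against 14.6%), T-box (TCACACC) in 2 (5.88%, against 3.98%) and CDX/HOX (TTTATGG) in 1 (2.94%, against 2.76%). FOX (TGTTTAC), TCF/LEF (CTTTGAT) and ETS (CCGGAAG) letters were in none of the 34, against 3.67%, 3.76% and 8.92% of all windows. Some windows overlap one another: the 6 windows with AP-1 letters lay at 4 of the 29 regions and the 9 with ZIC letters at 8. Only 12 of the 34 windows lay whole inside a region. Letters were counted over the whole window, so a match can lie outside the region, and the shares are not those of the regions. The matches are letters and not sites. Median GC content was 55.8% in the 34 windows and 53.0% in all windows, and the median number of CpG was 7 in both.

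Earlier H3K4me1 was common among far regions of every kind, which sets the scale for the regions here. Of the 1104 gained far regions, 86.5% had H3K4me1 at ES or MS (95% Wilson interval 84.4 to 88.4%), against 79.5% of all far regions. The share was 99.6% in the 9641 far regions with H3K27ac at each stage from ES to EHF, called stable, and 82.8% in the 1112 far regions with the opposite pattern, called lost, which made up 3.16% of far regions. The intervals cover counting error only. The gained regions thus stood below stable ones, while their place against far regions at large turned with the choice of stages. With OB alone as the late stage 69.1% of gained regions had H3K4me1 at ES or MS, and with EHF alone 69.6%, both below the 79.5% of all far regions. H3K4me1 at both ES and MS was found in 49.9% of the 1104 gained regions, against 53.1% of all far regions.

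LS, the stage between, served only in the merging of peaks and not to choose the regions. Of the 955 regions, 683 had an H3K27ac peak at LS (71.5%, interval 68.6 to 74.3%), against 66 of the 149 gained regions without early H3K4me1 (44.3%, 36.6 to 52.3%). Over all far regions the share was 69.0%, near that of the regions and above that of the gained regions without early H3K4me1. That value is raised by how far regions were made. It includes the 9641 stable regions, which have H3K27ac at LS by definition, and any region made of LS peaks alone. It therefore does not show whether the share in the 955 regions is high or low. Among the lost regions 52.9% still carried H3K27ac at LS.

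The share at LS was higher where more early stages carried H3K4me1, and these groups also differed in late peak strength and width, given below. The part of strength and width in the step from 1 early stage to both was not tested. With H3K4me1 at both ES and MS, 431 of 551 regions had H3K27ac at LS (78.2%, 74.6 to 81.5%), and with H3K4me1 at only 1 of them 252 of 404 did (62.4%, 57.6 to 67.0%). Which single stage carried it made no difference beyond the intervals, with 59.9% (53.8 to 65.8%) for ES alone and 66.4% (58.6 to 73.5%) for MS alone. Without H3K4me1 at either, the share was the 44.3% given above.

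At LS 599 regions had peaks of both marks (62.7%), 212 of H3K4me1 alone (22.2%), 84 of H3K27ac alone (8.80%) and 60 of neither (6.28%). The same shares were not counted over all far regions, of which 69.0% had H3K27ac and 71.8% H3K4me1 at LS. The 4 counts thus describe these regions and do not show a trait particular to them. The marks come from separate libraries, and their peaks can lie anywhere in a region. H3K4me1 at LS was found in 84.9% of the regions (811 of 955), against 59.7% of the gained regions without early H3K4me1 (89 of 149) and 71.8% of all far regions.

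**Figure D1:**
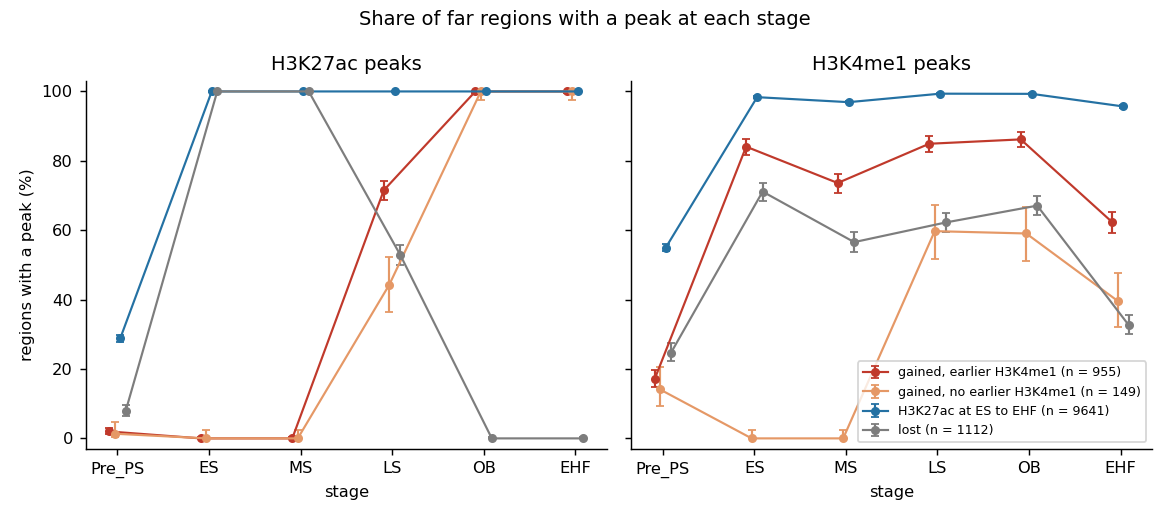
Percent of far regions with an H3K27ac peak (left) or an H3K4me1 peak (right) at each of the 6 stages, for 4 classes of far regions; points are shares of 1 library each, bars 95% Wilson intervals, and shares fixed by the choice of the class are at 0 or 100%. At LS the regions with earlier H3K4me1 are at 71.5% for H3K27ac and 84.9% for H3K4me1, and those without it at 44.3% and 59.7%.

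The libraries differed in depth. From ES to EHF the H3K27ac lists held 30072 to 39635 peaks over 35.9 to 42.1 Mb, with the fewest at MS and the most at LS, and the H3K4me1 lists 35646 to 47849 peaks over 39.1 to 51.3 Mb, with the fewest at EHF. The background at the weakest peaks was 0.211 to 0.330 fragments for H3K27ac and 0.164 to 0.347 for H3K4me1. The Pre_PS libraries were much shallower (0.0499 and 0.0144), and 67.3% of the Pre_PS H3K4me1 peaks were at the lowest fold and p of their list, called the floor. The part of depth in the absence of H3K27ac at ES and MS was not tested, other than with the same number of peaks taken from each list, which kept 480 of the 955 regions (50.3%).

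H3K4me1 in the late stages, which the choice did not use, was found at OB or EHF in 875 of the 955 regions (91.6%), against 74.5% of the gained regions without early H3K4me1 and 76.6% of all far regions. It was present at 84.1% of the regions at ES, 73.6% at MS, 84.9% at LS, 86.2% at OB and 62.3% at EHF. The lower share at EHF stands beside a lower share in all far regions, 72.8% at OB and 53.0% at EHF. At both OB and EHF together 543 regions carried it (56.9%, 53.7 to 60.0%), against 36 of the 149 gained regions without early H3K4me1 (24.2%, with an interval up to 31.6%), 49.2% of all far regions, 95.4% of stable and 27.8% of lost regions. Only 80 regions had H3K4me1 at neither late stage (8.38%), against 25.5% of the gained regions without early H3K4me1.

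H3K4me1 was present at all 5 stages from ES to EHF in 333 regions (34.9%), against 39.3% of all far regions and 92.3% of stable ones. It was present at all but EHF in 129 (13.5%) and at all but MS in 98 (10.3%). It was present at 4 stages in 330 regions, at 3 in 190, at 2 in 78 and at a single stage in 24. Regions that already had H3K27ac at LS also had late H3K4me1 more often: 434 of 683 had it at both OB and EHF (63.5%, 59.9 to 67.1%), against 109 of the 272 without H3K27ac at LS (40.1%, 34.4 to 46.0%). These counts share the same libraries and their depth. The regions with H3K27ac at LS also had stronger late H3K27ac peaks and were wider, given below, and the part of this was not tested. The same split was not counted over all far regions.

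Early H3K4me1 peaks reached over most of the length of a typical region. They covered a median of 80.0% of the region at ES (803 regions with a peak) and 76.9% at MS (703). At the limit of the choice, the 3 smallest overlaps were 33, 118 and 150 bp, and the 3 gained regions nearest to an early H3K4me1 peak without touching it lay 319, 485 and 1046 bp away. A median fold of 3.63 at ES and 3.55 at MS was followed by 5.19 at LS, 5.15 at OB and 4.70 at EHF, but folds of different lists depend on their depth and show no change by themselves.

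At Pre_PS, the shallowest stage, 19 regions had an H3K27ac peak (1.99%), against 9.88% of all far regions. H3K4me1 was present at 163 regions at Pre_PS (17.1%), against 29.1% of all far regions and 54.9% of stable ones. The median fold of those 163 peaks was the floor of the list (1.97), which rests on a pileup of 1 fragment.

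The H3K27ac peaks at the regions were weaker than at far regions at large, and the merged regions were a little narrower. Within its own list each peak was given the percentile of its fold. The mean of the OB and EHF percentiles had a median of 21.7 (quartiles 14.3 and 29.7, highest 60.1). It was 28.1 in the 24178 far regions with a late peak, where a peak at only 1 of OB and EHF counted by itself. In the gained regions without early H3K4me1 it was 15.0 and in stable regions 49.8, and these classes have both late peaks. Within the 955 it was 23.8 with H3K4me1 at both ES and MS and 19.5 with H3K4me1 at 1 of them. With H3K27ac at LS it was 23.6, and without 17.5. In 3 regions (0.314%) both late peaks were above the median fold of their lists, against 11.6% of all far regions. Of all far regions only 56.0% had a peak at OB and 51.2% at EHF, so this is an unlike comparison. Among stable regions, which have both late peaks, the share was 41.6%. In 105 (11.0%) either was at the floor, against 5.14% of all far regions, not all of which have a late peak. The median fold was 4.60 at LS (683 regions), 4.41 at OB and 4.18 at EHF (955 each). Median width of the merged regions was 533 bp (324 to 2982 bp), against 585 bp in all far regions. It was 458 bp in the gained regions without early H3K4me1 and 1154 bp in stable regions. Within the 955 it was 547 bp with H3K4me1 at both ES and MS and 507.5 bp with H3K4me1 at 1 of them. With H3K27ac at LS it was 555 bp, and without 473.5 bp. The choice used the presence of peaks in these same lists, so these strengths are a description.

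**Figure D2:**
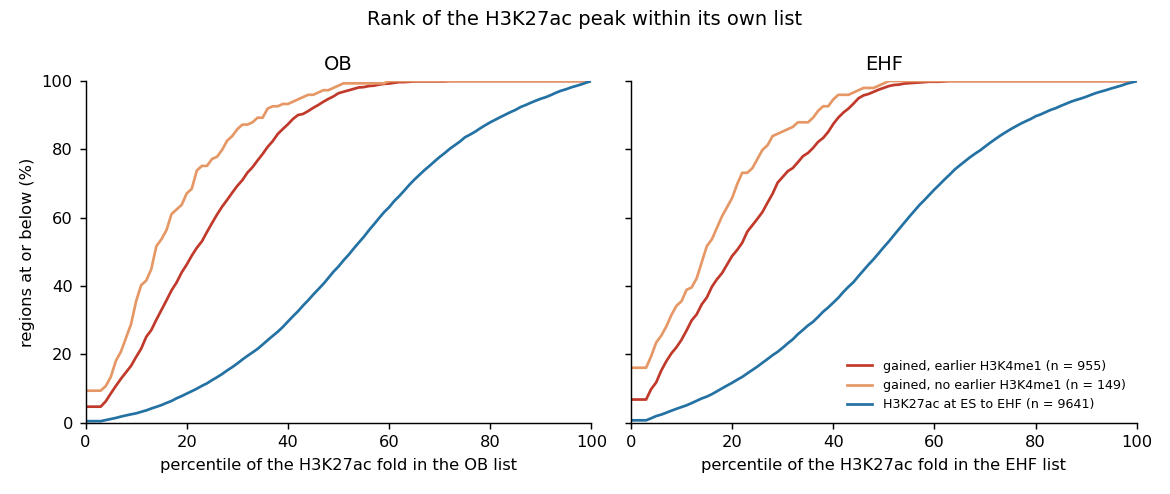
Cumulative percent of regions (y) by the percentile of their H3K27ac fold within the OB list (left) and the EHF list (right); each line is 1 class of far regions. The regions with earlier H3K4me1 lie between those without it and the stable ones, with a median of the mean percentile of 21.7, against 15.0 and 49.8.

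Since both gained classes differed in strength, the share with H3K27ac at LS was also read within bands of the late percentile, chosen after the values were seen. Below percentile 15 it was 59.7% with earlier H3K4me1 (154 of 258, 53.6 to 65.5%) and 35.1% without (26 of 74, 25.2 to 46.5%). From 15 to 25 it was 68.4% (227 of 332, 63.2 to 73.1%) and 45.8% (22 of 48, 32.6 to 59.7%). From 25 on it was 82.7% (302 of 365, 78.5 to 86.3%) and 66.7% (18 of 27, 47.8 to 81.4%), where the intervals overlap. The share was higher with earlier H3K4me1 in each band. Late H3K4me1 at both OB and EHF gave 42.6, 51.8 and 71.5% in the 3 bands with earlier H3K4me1 and 16.2, 22.9 and 48.1% without. By width, H3K27ac at LS was found in 30.4% of regions under 400 bp with earlier H3K4me1 (24 of 79) and in 13.0% without (3 of 23), in 69.7 and 49.5% from 400 to 600 bp, and in 84.6 and 51.7% from 600 bp on; a peak at LS itself widens the merged region.

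**Figure D3:**
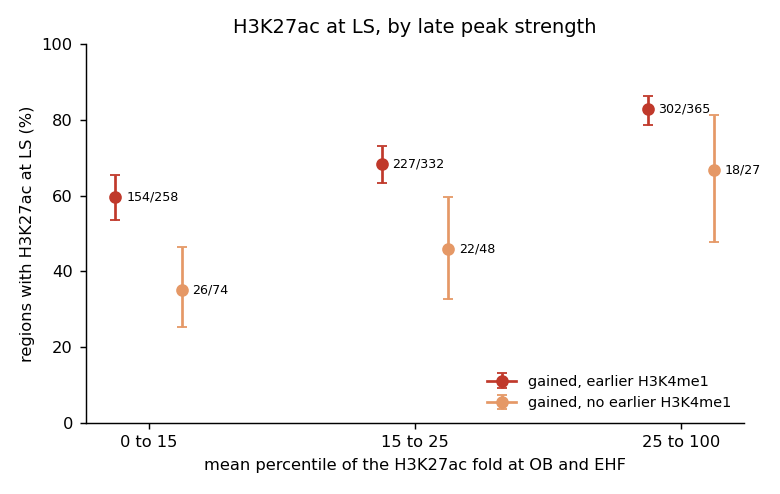
Percent of gained far regions with an H3K27ac peak at LS (y) in 3 bands of the mean percentile of the OB and EHF folds (x), with 95% Wilson intervals and counts beside the points. Regions with earlier H3K4me1 are at 59.7, 68.4 and 82.7%, and those without at 35.1, 45.8 and 66.7%.

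The regions lay mostly inside genes or close to them. Inside a protein-coding gene were 593 (62.1%, 59.0 to 65.1%), against 57.2% of all far regions, 66.4% of the gained regions without early H3K4me1, 68.1% of stable and 40.2% of lost regions. For 542 of the 593 (91.4%) the nearest gene end was that of the gene around them. This is close to the background, with 18427 of the 20146 far regions inside genes. The median distance to a gene end was 14878 bp (quartiles 5979 and 34116 bp), against 18289 bp in all far regions, 10707 bp in stable and 40617 bp in lost regions. Over 50 kb from any gene end were 18.1% of the regions, against 27.2% of all far regions. The 3 nearest to a gene end were those of Arhgef10 (1014 bp), Pip4k2c (1041 bp) and Clec4f (1072 bp), and the 3 left out just under 1 kb were at Ccdc157 (920 bp), Usp20 (884 bp) and Stk10 (869 bp). A region inside Tmem39b, at chr4:129684125-129684548, overlapped the hairpin of Mir7016 by 49 of its 72 bp.

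The nearest H3K27ac peak of ES or MS was a median of 7389 bp away, and 565 regions (59.2%) had one within 10 kb, but only 8 within 1 kb. Among the gained regions without early H3K4me1 49.0% had one within 10 kb, and among all far regions 85.7%, where a region's own early peak counts; the regions here have none by the choice. They were nearest to 861 genes, 3.98% of the 21627 protein-coding genes and 7.27% of the 11849 with a far region nearest. Of the 861 genes, 82.1% carried H3K27ac within 1 kb of an end at both ES and MS (79.4 to 84.5%), against 67.7% of genes with other far regions only (66.9 to 68.6%) and 61.5% of all protein-coding genes. Late acetylation at these regions was thus mostly found around genes whose ends were acetylated from early on.

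By chromosome, the regions made up 1.12% of far regions on chromosome 13 (13 of 1159) and 3.74% on chromosome 6 (67 of 1790), and between 1.64 and 3.58% on the others, with X at 1.64% (14 of 853). Most regions stood alone. With gaps of up to 100 kb joined, 730 were single, 85 groups held 2, 11 held 3, 4 held 4 and 1 held 6. Of the 861 genes, 780 had 1 region, 72 had 2, 7 had 3, Rbm19 had 4 and Vegfa had 6.

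Vegfa, which encodes the vascular endothelial growth factor that embryos need to form vessels, had 6 regions among its 19 far regions, spread over 93.0 kb of chromosome 17. They lay 61.4, 37.6, 23.0 and 13.5 kb downstream of the annotated start, the last inside the gene, and upstream of it at −27.5 and −31.1 kb. At the outermost downstream region (chr17:45970746-45971265) the H3K27ac fold was 3.60 at LS, 5.27 at OB and 4.13 at EHF. At the outermost upstream region (chr17:46063198-46063708) it was 5.79 at LS, 6.78 at OB and 5.27 at EHF. H3K27ac was present at LS in 4 of the 6, the exceptions being the regions at 37.6 and 23.0 kb, and H3K4me1 in all 6. Early H3K4me1 was present at both ES and MS in 2 of the 6, the outermost ones, and at either in the rest. The end of Vegfa itself carried H3K27ac at all 6 stages. Of its other far regions 2 were stable, and none was lost.

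**Figure D4:**
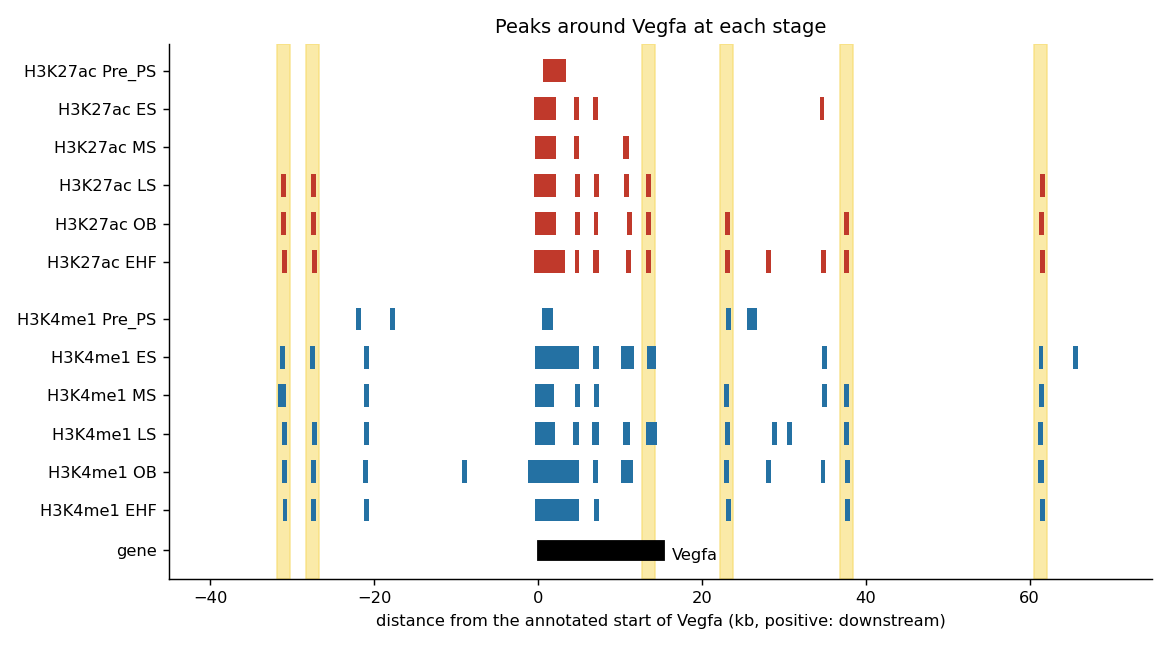
Peaks of H3K27ac (red) and H3K4me1 (blue) around Vegfa (black bar) at each stage, by distance from its annotated start in kb, positive downstream; yellow bands mark the 6 regions gained with earlier H3K4me1. No red peak lies in a yellow band at Pre_PS, ES or MS, 4 bands hold one at LS and all 6 at OB and EHF.

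Rbm19, a factor of ribosome assembly, had 4 regions among 34 far regions, and 3 of these were at the floor of the OB list (fold 3.25). The genes with 3 regions each were Gse1, Hrh1 (the histamine H1 receptor), Gdpd5, Arhgef10 (an exchange factor of small GTPases), Zfand3, Gm46866 and Rasa3 (a GTPase-activating protein of Ras). Far regions in all numbered 43 at Gse1, 25 at Hrh1, 12 at Gdpd5, 10 at Gm46866, 9 at Arhgef10, 9 at Zfand3 and 5 at Rasa3. The 3 regions of Gm46866 lay inside Glis1, a zinc finger transcription factor gene, within 9.55 kb of one another (chr4:107480305-107489849). Their H3K27ac folds were 4.68, 4.51 and 4.61 at LS, 3.77, 3.83 and 5.81 at OB, and 3.48, 5.62 and 3.14 at EHF. All 3 carried H3K27ac at LS, and H3K4me1 at ES, MS, LS and OB.

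The 10 regions with the strongest late H3K27ac were nearest to genes of varied function. The region of Ptpn1, a phosphatase that dampens insulin and leptin receptor signalling, lay 90917 bp from the gene (chr2:167839200-167839833) and had an H3K27ac fold of 7.24 at LS, 10.6 at OB and 6.77 at EHF. Its H3K4me1 fold was 3.51 at ES, 3.57 at MS, 7.10 at LS, 8.50 at OB and 6.59 at EHF. Both marks thus had a peak at each stage from LS on.

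The region nearest to Hes1, a repressor that acts downstream of Notch, lay 182345 bp from it (chr16:29882445-29883012), with H3K27ac at 5.80 at LS, 5.74 at OB and 9.79 at EHF. That of Rbx1, the RING subunit of cullin ubiquitin ligases, had an H3K27ac fold of 8.04 at LS, 6.31 at OB and 9.61 at EHF. Rbx1 also had the highest early H3K4me1 fold at MS of these 10 regions (8.79). Of the 10, only that of Ngfr, the p75 neurotrophin receptor, had no H3K27ac peak at LS; its fold was 8.22 at OB and 5.96 at EHF.

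The others were nearest to Supt5 (an elongation factor of RNA polymerase II), Ppp2r5c (a subunit of the phosphatase PP2A), Dnah2 (an axonemal dynein), Tdrd3 (a reader of methylated arginine), Akap1 (an anchor of protein kinase A at mitochondria) and Trim31, a ubiquitin ligase. Their H3K27ac folds were 3.34 or more at LS, 7.16 to 8.82 at OB and 5.74 to 7.34 at EHF. The widest regions were nearest to Ccnd2 (cyclin D2, 2982 bp), Ccdc85c (2974 bp), Dlx4 (a homeobox gene, 2808 bp), Cdc42bpb (a kinase that binds CDC42, 2697 bp) and Tfap2c (2409 bp). Of the 37 genes named by the rules for strength, width, number and lists, 34 had H3K27ac at an end at each stage from ES to EHF, the exceptions being Arhgef10 and Plac1, with none, and Trim31, with MS alone. The share over all genes was not counted for ES to EHF. At ES and MS it was 61.5% of all protein-coding genes and 82.1% of the 861 genes with a region nearest.

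**Figure D5:**
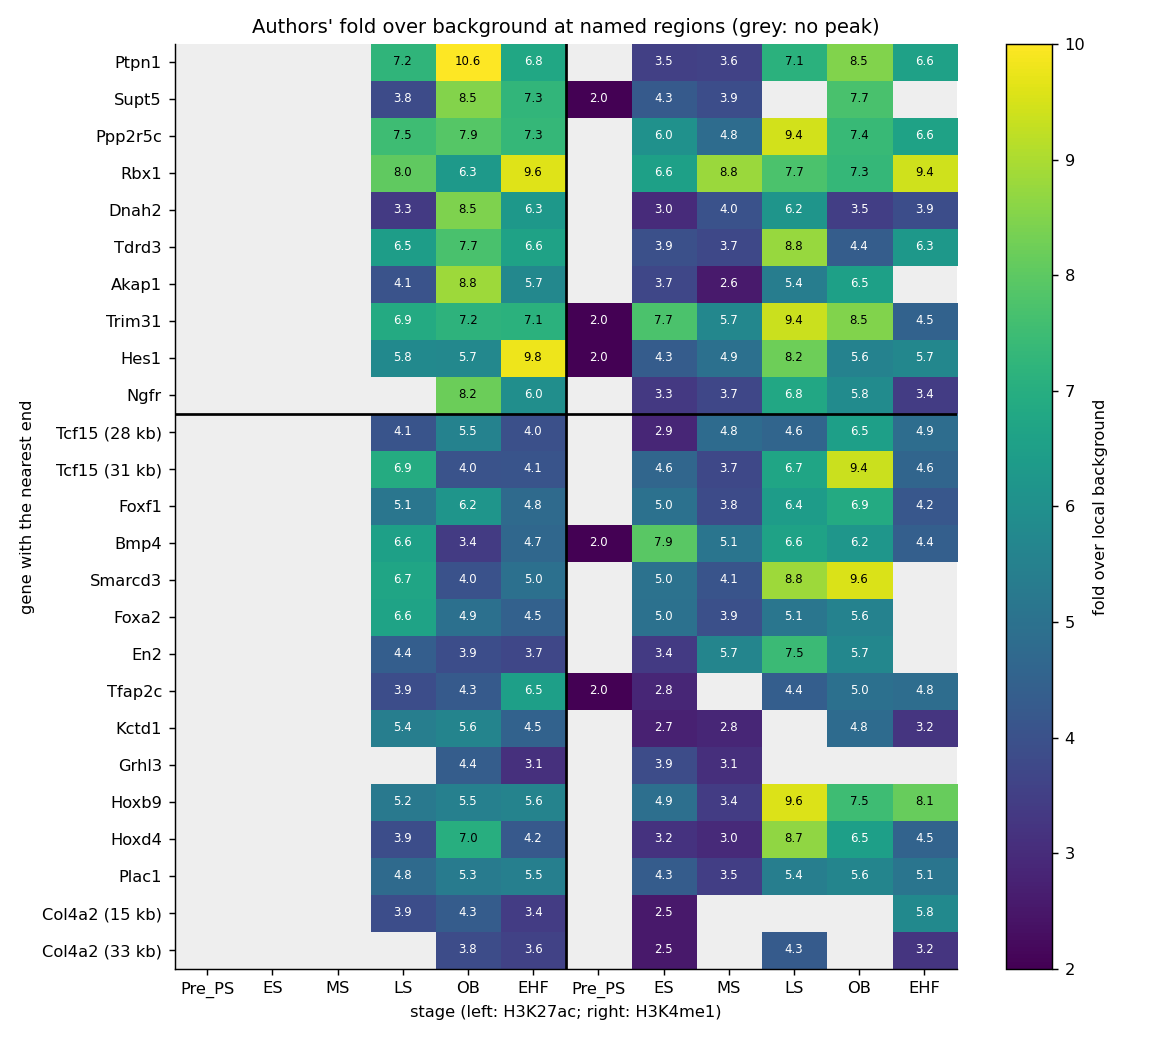
Authors' fold over local background at 25 named regions (rows, by the gene with the nearest end) for H3K27ac (left block) and H3K4me1 (right block) at the 6 stages; grey means no peak, folds of different columns come from lists of different depth, and the upper block holds the 10 regions with the highest late percentile. H3K27ac is grey at Pre_PS, ES and MS in every row, and at LS in those of Ngfr, Grhl3 and 1 of the 2 of Col4a2.

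Genes of 16 lists of embryonic tissues and reference sets were looked up among the nearest genes. Of 261 list genes, 14 had a region nearest (5.36%), against 3.98% of all protein-coding genes; of the 186 with a far region, it was 7.53%, against 7.27%. Both shares lie near the background. Of the mesoderm lists, nascent and paraxial mesoderm had 1 gene of 20, lateral plate and extraembryonic mesoderm 2 of 20 and cardiac mesoderm 1 of 18. Definitive endoderm and node had 1 of 18, neural ectoderm 1 of 25, surface ectoderm and amnion 3 of 17, and posterior Hox and Cdx 2 of 18. The lists of epiblast and pluripotency (14 genes), primitive streak (15), blood and endothelium (22), housekeeping (16) and adult tissue (22) had none.

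Tcf15, a bHLH factor of paraxial mesoderm, had 2 regions, 28066 and 31194 bp away on chromosome 2, and no other far region. In the first the H3K27ac fold was 4.07 at LS, 5.55 at OB and 3.97 at EHF, and in the second it was 6.92, 4.04 and 4.08. Both carried H3K4me1 at each stage from ES to EHF. The region nearest to Foxf1, a forkhead factor of lateral plate mesoderm, had H3K27ac at 5.13 at LS, 6.16 at OB and 4.77 at EHF and also carried H3K4me1 at all 5 stages. That of Bmp4, a ligand made in extraembryonic tissue and mesoderm, was 355696 bp from the gene, so the assignment by nearest end is weak; its H3K4me1 fold was 7.94 at ES and its H3K27ac fold 6.56 at LS, 3.38 at OB and 4.69 at EHF.

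The region nearest to Smarcd3, the heart-enriched BAF60c subunit of chromatin remodelling complexes, lay 27549 bp from it. Its H3K27ac fold was 6.71 at LS, 4.03 at OB and 4.96 at EHF. That of Foxa2, the forkhead factor of endoderm and node, lay 62685 bp away and had 6.65, 4.95 and 4.50. That of En2, a homeobox gene of the midbrain and hindbrain, lay 40831 bp away and had 4.39, 3.89 and 3.70. None of these 3 regions had H3K4me1 at EHF, and all had it at ES, MS, LS and OB. Each of the 3 genes had H3K27ac at an end at every stage from ES to EHF.

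Of the surface ectoderm genes, Tfap2c encodes an AP-2 factor also used by trophoblast and germ cells, and its region (chr2:172509402-172511810) had H3K27ac at 3.88 at LS, 4.26 at OB and 6.52 at EHF. The region inside Kctd1, an inhibitor of AP-2 factors, had 5.42, 5.60 and 4.51. The region inside Grhl3, a regulator of the epidermal barrier, had no H3K27ac peak at LS, 4.36 at OB and the floor of 3.10 at EHF. Its H3K4me1 was found at ES and MS only. The region in Grhl3 thus had early H3K4me1, late H3K27ac and no late H3K4me1.

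The Hox regions both carried both marks at LS, OB and EHF. The region next to Hoxb9 (chr11:96260367-96261965) had H3K27ac at 5.24 at LS, 5.47 at OB and 5.57 at EHF, and H3K4me1 at 4.91 at ES, 3.44 at MS, 9.57 at LS and 8.14 at EHF, with a peak at OB as well. The region inside Hoxd4 (chr2:74725234-74725714) had H3K27ac at 3.88 at LS, 7.02 at OB and 4.25 at EHF. Its H3K4me1 fold was 3.18 at ES, 2.96 at MS, 8.68 at LS, 6.51 at OB and 4.54 at EHF.

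Lists of tissue outside the embryo proper, and that of primordial germ cells, were looked up in the same way. Of the visceral endoderm list 1 gene of 19 had a region, of trophoblast and extraembryonic ectoderm 2 of 19, of parietal endoderm 1 of 12 and of primordial germ cells 1 of 10. The germ cell gene and 1 of the 2 trophoblast genes were the same gene, Tfap2c, also counted under surface ectoderm. The region nearest to Plac1, a gene of the placenta, lay 16854 bp from it and had H3K27ac at 4.76 at LS, 5.34 at OB and 5.46 at EHF. Col4a2, a basement membrane collagen that parietal endoderm makes in quantity, had 2 regions, at 4.33 and 3.85 at OB and 3.43 and 3.58 at EHF, of which 1 had H3K27ac at LS (3.89).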

How the data were processed

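Both marks were read from 12 broad peak lists, 1 per stage and mark. The submitters' processing notes name Bowtie2, Picard, deepTools, MACS2 and the mm10 build, with versions, settings, cell numbers and fragment totals not given in the sources used here. Each deposited fold is the authors' ratio over local background and served to describe peaks and to rank them in their own list, taking the highest peak of a region. The deposited −log10 p and −log10 q come from the peak calling by the authors; −log10 q ranked peaks in the alternatives. The deposited score was not used. Depth was read from the lowest fold and p of each list, (pileup + 1)/(background + 1), with a tolerance of 0.001 on −log10 p.

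Chromosomes 1 to 19 and X were used (481 peaks of 442655 lay elsewhere), with Python 3.11.15, pandas 2.3.3, numpy 2.4.6, scipy 1.17.1 and matplotlib 3.10.9. The gene set was RefSeq's 21627 protein-coding genes on GRCm38.p6, the assembly behind mm10; the table gives outer ends only, so exons and introns were not told apart. A region was assigned to the gene with the nearest end. Shares carry 95% Wilson intervals for counting error only, and no test was made, since regions of 1 library are not replicates. Tested on simulated data, 200 of 200 planted regions were recovered in each of 4 classes. The simulated lists had no missed or spurious peaks and no differences in depth, so this checks the code and not the calls in the real lists.

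Named were the 10 regions with the highest mean percentile of the fold at OB and EHF, the 5 widest, the 10 genes with the most regions, list genes with a region, and those next to the 1 kb limit; the start windows shown were picked after their values were seen. One gene that these rules select is not reported here. The regions and lists were chosen with earlier results of these data known. No genome was at hand, so motifs were sought in RefSeq start windows in place of region centres; windows on chromosome 18 were not used here. The alternatives changed the peak threshold, peak number, distance, overlap, merging and stages, 13 in all.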

Additional observations from a re-analysis of the deposited data

How the results depend on the processing

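The number of gained far regions with earlier H3K4me1 stayed within 1.5 times of 955 in 8 of 13 alternatives (732 to 1341), and the share inside genes moved in 1 alone. In the upper 50% of each list there were 240 regions, and only 2 of the 955 were among them (0.209%); 88.9% of gained regions had early H3K4me1, and the shares with H3K27ac at LS, H3K4me1 at OB and EHF, and H3K4me1 at LS were 80.8, 64.2 and 93.3%. With every list of a mark held to 1 length (30072 and 35646 peaks) these 4 shares were 81.5, 57.2, 62.7 and 81.1%. With ES alone as the early stage they were 77.6, 79.4, 65.0 and 89.1%. With MS alone there were 2306 regions, at 74.5, 85.8, 73.9 and 93.2%. With OB alone as the late stage there were 2620, at 69.1, 54.4, 38.1 and 70.1%, and 57.1% lay inside genes. With EHF alone there were 2321, at 69.6, 55.9, 41.4 and 73.4%. With H3K4me1 needed at both ES and MS there were 551, at 49.9, 78.2, 64.1 and 90.0%. With H3K4me1 over at least 50% of the region, 81.0% of gained regions had it. The cause of these shifts was not tested. In all 13 alternatives, the share with H3K27ac at LS was higher in regions that met the H3K4me1 condition than in gained regions that did not. The alternatives reuse the same lists and are not repeats. In those with H3K4me1 needed at both ES and MS or over 50% of the region, or with ES or MS alone, regions that failed it could still carry early H3K4me1. Without floor peaks 821 of the 955 regions remained (86.0%). No paired analysis was possible because each stage and mark had 1 library and no result comes from a test. Peaks below a list's floor cannot be seen, and at Pre_PS this limits both marks.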
